A study of Homo sapiens with 12 samples.

Results

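DSCAM, a gene of chromosome 21, was described here through its H3K9me3 peaks in 293T cells. The gene (ENSG00000171587) lies on the minus strand of chromosome 21 from 40010999 to 40847139 (hg38), a length of 836141 bp. Members were the peaks that the gene column of the lists assigned to DSCAM, or that overlapped these positions. There were 118 such peaks of 112068 in both lists together, 2 of 46898 in the wild-type (WT) list and 116 of 65170 in the knockout (KO) list. The gene was chosen by the number of its peaks in these same lists, so the counts of peaks at DSCAM in WT and KO are a description and carry no test.

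The WT group was 293T cells of genotype WT, and the KO group was 293T cells of genotype SMARCA3_KO, both without any further treatment named in the labels. SMARCA3 is the older name of HLTF, an enzyme of the SNF2 family that moves along DNA and carries the RING domain of ubiquitin ligases. The 293T line comes from human embryonic kidney and carries the SV40 large T antigen. The labels give 3 ChIP libraries and 3 input libraries per genotype, with an antibody against H3K9me3. The 2 peak lists hold no value per library, the depth behind them is unknown, and how the libraries were combined is not given in the sources used here. No difference below therefore has a replicate check. Whether the KO cells are 1 clone is not stated in the labels, and no expression was measured, so the identity of the cells and the level of DSCAM RNA could not be checked.

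H3K9me3 is the mark of constitutive heterochromatin. It is written by methyltransferases such as SUV39H1 and SETDB1 and read by HP1 proteins, and it covers repeats, zinc finger gene clusters and gene-poor, late-replicating stretches. DSCAM encodes the Down syndrome cell adhesion molecule, a transmembrane protein of the immunoglobulin superfamily that mediates adhesion and self-avoidance of neurites and takes part in netrin signalling in axon guidance. It is a neuronal gene with very long introns.

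The start of the gene was free of peaks in both lists. The RefSeq table (GRCh38.p14) places the gene from 40010999 to 40847158, and its 250 bases before the transcript start, chr21:40847159-40847408 on the minus strand, overlapped 0 WT and 0 KO peaks. The nearest KO peak lay 25500 bp and the nearest WT peak 45347 bp from this stretch. DSCAM-IT1, a noncoding transcript inside DSCAM on the same strand, starts within the part of the gene that is dense in KO peaks, and its upstream bases, chr21:40630768-40631017, also met 0 peaks, with the nearest KO peak 3845 bp away. How many promoter entries met no peak was not counted, so whether such an absence is unusual was not tested. Most protein-coding genes held no peak even in the body: 20.9% carried a WT peak and 23.7% a KO peak. Both sequences are shown as examples of transcript starts that met no peak. They are given 5′ to 3′ in the direction of transcription, with each CG dinucleotide, the usual target of DNA methylation, in capitals.
DSCAM upstream: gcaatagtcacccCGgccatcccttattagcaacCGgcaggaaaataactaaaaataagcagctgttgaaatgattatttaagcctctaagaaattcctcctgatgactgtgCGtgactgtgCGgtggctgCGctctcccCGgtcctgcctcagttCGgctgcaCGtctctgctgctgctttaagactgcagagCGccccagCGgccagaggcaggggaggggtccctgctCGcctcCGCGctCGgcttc
DSCAM-IT1 upstream: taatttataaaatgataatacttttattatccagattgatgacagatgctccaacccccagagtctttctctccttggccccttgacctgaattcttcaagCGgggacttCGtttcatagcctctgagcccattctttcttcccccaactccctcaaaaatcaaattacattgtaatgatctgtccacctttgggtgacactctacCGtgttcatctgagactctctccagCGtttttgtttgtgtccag
The DSCAM stretch holds 14 CG dinucleotides and has a GC content of 56.8%, and the DSCAM-IT1 stretch holds 4 and has 42.8%. CG reads the same on both strands. Across 35116 RefSeq promoter entries of the same length the median was 11 CG and 58% GC, 44.8% of them held at least 14 CG, and 70.7% held at least 4.

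The WT list had peaks at a single place in DSCAM, and the KO list had separate peaks spread along most of its length. The 2 WT peaks lay next to each other 45.5 and 46.9 kb from the transcript start. The first, chr21:40799865-40800634, was 770 bp wide with a fold enrichment of 4.48 and a q-value of 3.14e-09. The second, chr21:40801547-40801811, was 265 bp wide with a fold of 3.53 and a q-value of 4.04e-05. The fold and the q-value are the authors' values for each peak, read as ChIP signal over background and as an adjusted p within its own list. From the last WT peak before the gene, in the flank beyond the 3′ end, to the first of this pair, 1074853 bp held no WT peak, and 110 KO peaks were called in the same stretch.

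Both WT peaks were also called in KO. The KO peak at chr21:40800121-40800631 (fold 4.82, 511 bp) lay wholly within the first WT peak and covered 66.4% of it. The KO peak at chr21:40801424-40802678 (fold 4.28, 1255 bp) contained all of the second, which filled 21.1% of it. The first of these KO peaks had the highest fold of all KO peaks in the gene, and the second ranked 4 by fold and 2 by width. The place called in both genotypes thus held the strongest KO peak of the gene. The other 114 of 116 KO peaks, 98.3%, met no WT peak by at least 1 bp, a share that the 2 WT peaks of the gene hold close to its upper limit. Over chromosomes 1 to 22, X and Y this was so for 49.4% of KO peaks, and for 81.2% of the KO peaks of chromosome 21 outside DSCAM. The latter peaks were densest from 18 to 26 Mb, so their share leans on that stretch. In the other direction 0 of the 2 WT peaks lacked a KO peak, beside 20.1% of WT peaks on the chromosomes.

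**Figure D1:**
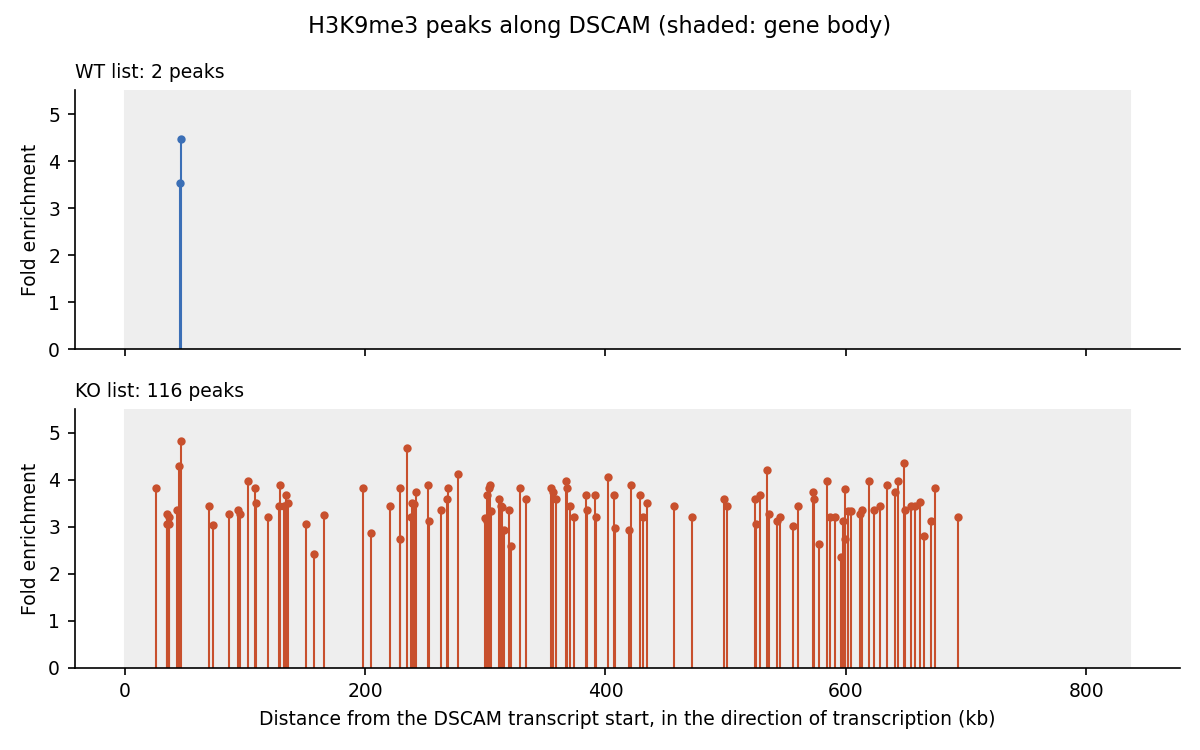
H3K9me3 peaks along DSCAM in the WT list (top, 2 peaks) and the KO list (bottom, 116 peaks). The x axis is the distance of the peak's middle from the transcript start in kb, the y axis the authors' fold enrichment, and shading marks the gene body. KO peaks stand along the gene at similar heights up to 694 kb from the start, and the 2 WT peaks stand at the position of the highest KO peak.

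Peaks in KO stopped short of both ends of the gene. The KO peak nearest to the transcript start, chr21:40821388-40821658, left 25481 bp free at the 5′ end. The one nearest to the 3′ end, chr21:40153216-40153489, left 142217 bp free. Their folds were 3.82 and 3.22. Between them, 116 peaks were spread over 668443 bp. Outside the gene, the next KO peak beyond the 5′ end began 47586 bp away (chr21:40894726-40896739, fold 3.42), and the next beyond the 3′ end ended 50457 bp away (chr21:39960069-39960541, fold 3.82). The latter was alone: 398518 bp between the peak at IGSF5 and the first peak inside DSCAM held no other KO peak. The dense run of KO peaks therefore began and ended inside the gene.

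Divided into 10 equal segments of 83.6 kb numbered from the 5′ end, the gene held between 9 and 22 KO peaks in each of segments 1 to 8, or 113 of the 116. Segments 4 and 8 were the fullest, with 20 and 22 peaks, and segment 6 was the emptiest of the 8, with 9. Segment 9 had 3 peaks and segment 10 had 0. Median fold per segment ranged from 3.22 to 3.66 over the 9 segments with peaks, and median width from 284 to 491.5 bp. The number of KO peaks thus ran from 0 to 22 per segment, while fold is known only for called peaks. The spread of these 2 measures was not compared on a common scale. In windows of 50 kb counted from the transcript start, the 16 full windows up to 800 kb had a median of 8 KO peaks, and 2 of them were empty. The 43 windows outside the gene had a median of 1 and a highest of 7, and 16 were empty.

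**Figure D2:**
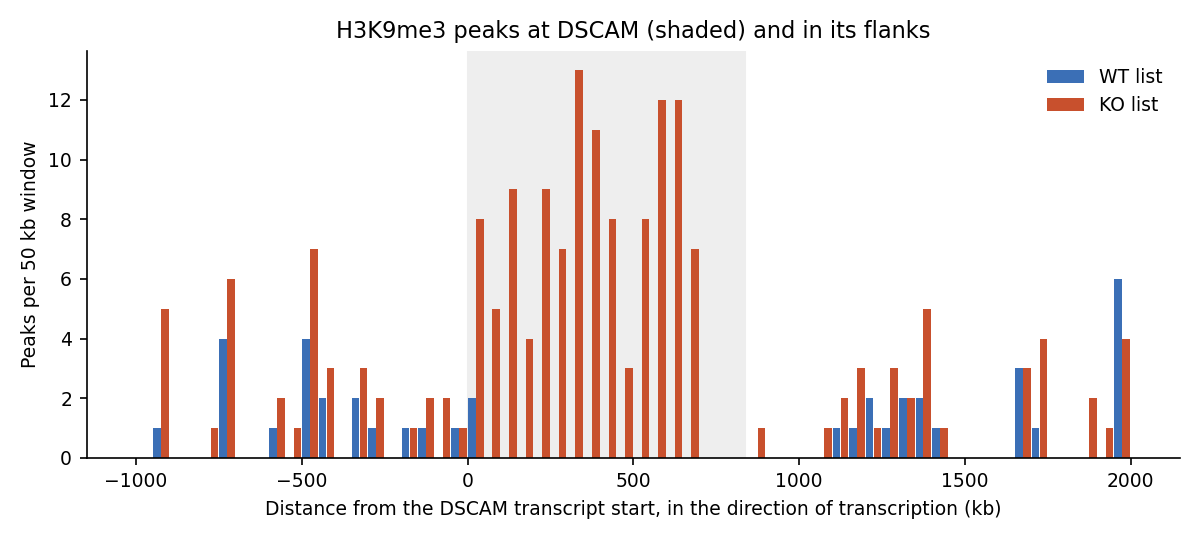
Peaks per 50 kb window (y axis) by distance from the DSCAM transcript start in kb (x axis) in the WT and KO lists, with the gene body shaded. Inside the gene KO windows reach 13 peaks, and outside it the highest KO window has 7.

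Neighbouring KO peaks stood a few kilobases apart. The 115 gaps between them had a median of 3185 bp and quartiles of 812.5 and 6983 bp. The shortest gap was 59 bp and the longest 32045 bp, between 40649109 and 40681153, and 7 gaps exceeded 20 kb. Peaks closer than 1 kb accounted for 32 gaps, and when these were joined the gene held 84 regions, the largest 5060 bp long. No broad domain was thus called in DSCAM: the KO peaks were separate and short. They covered 50736 bp, or 6.07% of the gene, and the WT peaks covered 1035 bp, or 0.124%.

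In PCDH9, a protocadherin gene of chromosome 13 with many peaks in both genotypes, KO gaps had a lower median, 1540 bp, and 67 of 155 were under 1 kb. In NCAM2, the neural cell adhesion molecule gene on the same chromosome as DSCAM, the median gap was 4682 bp, with 11 of 68 under 1 kb. In GPC5, a glypican gene of chromosome 13, it was 7337 bp, with 25 of 97 gaps over 20 kb.

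**Figure D3:**
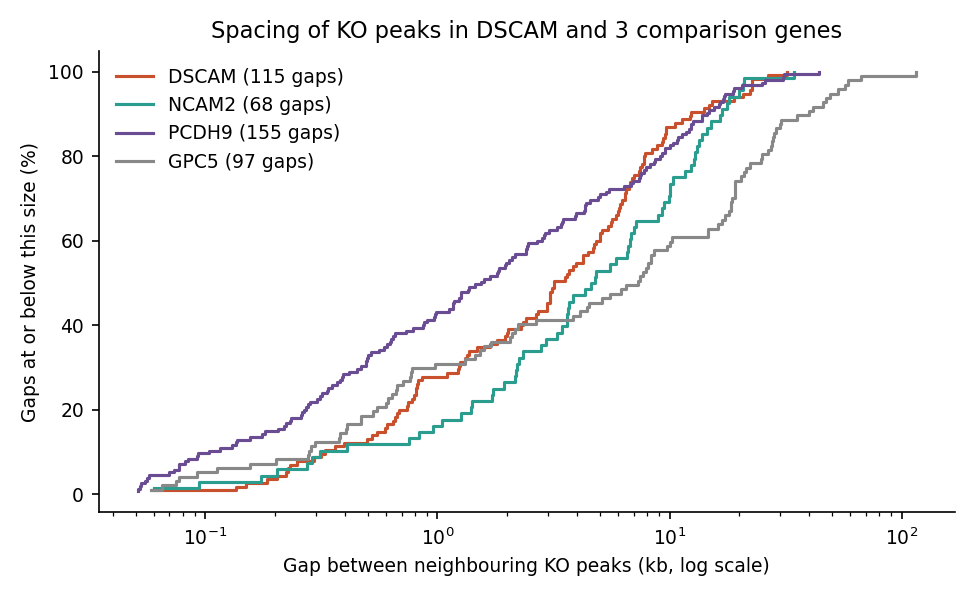
Cumulative share of gaps between neighbouring KO peaks (y axis, percent) by gap size (x axis, kb, log scale) in DSCAM (115 gaps), NCAM2 (68), PCDH9 (155) and GPC5 (97). The DSCAM curve lies between those of PCDH9 and NCAM2 over much of its range, with medians of 3185, 1540 and 4682 bp.

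The KO peaks of DSCAM were narrow and of low fold. Their median width was 351.5 bp (quartiles 303 and 509.5), beside 530 bp for all KO peaks on the chromosomes, 406 bp on chromosome 21 outside the gene and 556 bp in the 1 Mb on each side of it. Only 2 of them, 1.72%, were wider than 1 kb, against 22.7% of all KO peaks, 10.7% on the rest of chromosome 21 and 25.8% in the flanks. The widest, chr21:40717075-40718718, measured 1644 bp with a fold of 3.90. The second was the peak of 1255 bp shared with WT, and the third measured 949 bp (chr21:40604697-40605645, fold 3.74). At the narrow end, 26 peaks, 22.4%, were at most 300 bp wide, beside 11.1% of the KO list, whose narrowest peak has 271 bp.

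Fold in DSCAM ran from 2.35 to 4.82 with a median of 3.43, against 3.59 for KO peaks on the chromosomes, 3.51 on chromosome 21 outside DSCAM and 3.68 in the flanks. A fold of 4 or more was reached by 7 of the 116, or 6.03%, and by 30% of all KO peaks, 17.9% of the rest of chromosome 21 and 32.3% in the flanks. None reached 5, which 8.62% of all KO peaks and 3.18% on the rest of chromosome 21 did. Among the peaks that met no WT peak, the highest fold was 4.67 (chr21:40612389-40612967, q 5.24e-13), followed by 4.36 (chr21:40198148-40199090) and 4.21 (chr21:40312178-40312452). In median width and fold the DSCAM peaks were nearer to the other KO peaks of chromosome 21 than to those of the flanks, but they had fewer wide and strong peaks than either. Those other peaks were unevenly placed. From 18 to 26 Mb the median was 172 KO peaks per Mb window, and from 26 to 40 Mb it was 24.5. The likeness may therefore describe the dense stretch more than the whole chromosome, and the stretches were not compared separately.

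**Figure D4:**
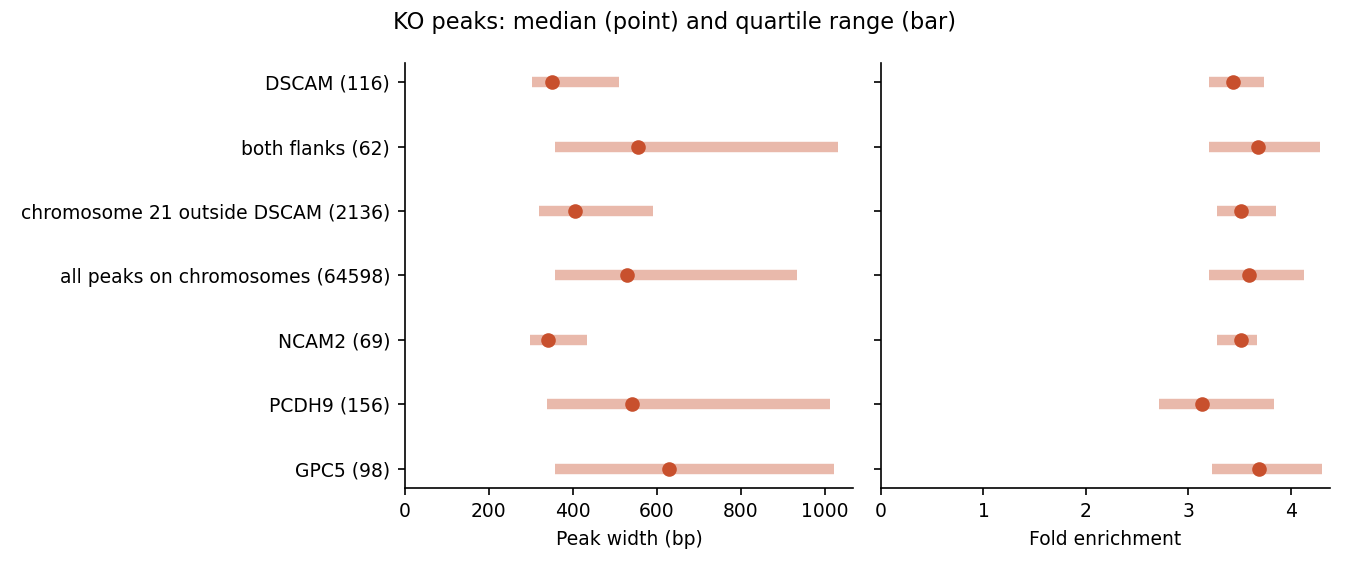
Median (point) and quartile range (bar) of the width in bp (left) and the fold enrichment (right) of KO peaks at DSCAM, in its flanks, on the rest of chromosome 21, on all chromosomes and at 3 comparison genes, with the number of peaks in brackets. DSCAM and NCAM2 have the lowest median widths, 351.5 and 340 bp, and the narrowest ranges.

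Many of these peaks shared the same values. The 116 peaks took 45 distinct folds, the commonest of which, 3.43, stood at 12 peaks, and 25 peaks had one and the same q-value, 2.09e-06. In both lists part of the folds lie on evenly spaced levels, 0.07724 apart in KO and 0.07883 in WT (tolerance 1.5e-05). This held for 86 DSCAM peaks in KO, 74.1%, beside 71.8% on the rest of chromosome 21, 45.2% in the flanks and 52.1% of the KO list. The share on the rest of chromosome 21 likewise leans on the dense stretch from 18 to 26 Mb. What sets these levels was not tested.

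The number of DSCAM peaks counted depended on the strength required, and at a similar fold the lists gave different q-values. Within the gene itself a WT peak of fold 3.53 had a q-value of 4.04e-05, whereas KO peaks of fold 3.51 had 5.9e-07. The median fold of the WT list was 3.77 and its lower quartile 3.42, and 28 of the DSCAM KO peaks stood at or above that median and 52 below that quartile. Against the median of the whole KO list, 3.59, 39 DSCAM KO peaks stood at or above it and 77 below. Counting only peaks whose fold reached the pooled median of WT and KO, 3.69, left 1 WT and 32 KO peaks, and taking the 46898 peaks of smallest q from each list left 2 and 54. From fold 5 there was no peak in either. How much of the difference in number follows from the sensitivity of the lists was not tested.

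By the authors' annotation nearly all KO peaks at DSCAM were of the gene-body class. Members were taken by the gene's name or by overlap with its 836141 bp, so this class was largely built in. The gene column named DSCAM for 111 of the 116 KO peaks and both WT peaks, all of the gene-body class. Of the 111, 72 were assigned to the full-length transcript ENST00000400454 and 39 to the shorter ENST00000404019, whose start lies at 40353654. The distances to the start of the assigned transcript ran from 25616 to 471655 bp for the first and from 5230 to 200302 bp for the second. Exons and introns were not analysed here.

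The remaining 5 KO peaks bore the names of small genes inside DSCAM. DSCAM-IT1 took 3, MIR4760 took 1 (chr21:40212692-40213100, fold 3.90) and the small RNA RF00432 took 1 (chr21:40513280-40513625, fold 3.59). The last 2 were the only peaks in the gene placed in a promoter class, within 1 kb of a start. The MIR4760 peak lay 260 bp from the hairpin at 40212352 to 40212431 and did not overlap it. Its mature products are shown because MIR4760 is the microRNA inside the gene, from RefSeq (GRCh38.p14), 5′ to 3′, with the seed, bases 2 to 8, in capitals.
hsa-miR-4760-5p: uUUAGAUUgaacaugaaguuag
hsa-miR-4760-3p: aAAUUCAUguucaaucuaaacc
The 2 arms have different seeds. DSCAM-AS1, a noncoding gene known from estrogen receptor positive breast cancer cells, met 0 peaks in either list, and its nearest KO peak lay 4372 bp away. By RefSeq coordinates 2 KO peaks overlapped LOC105369294 and 2 overlapped DSCAM-IT1. None of the 6 genes listed inside DSCAM met a WT peak.

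The flanks of 1 Mb on either side differed from DSCAM in peak density. Together they held 32 WT and 62 KO peaks, or 16 and 31 per Mb, where DSCAM held 2.39 and 139 per Mb. KO density was 4.48 times as high in the gene as beside it, and WT density was lower in the gene. By alternatives chosen after seeing the data, this ratio was 2.87 in lists of equal length, 2.47 from the pooled median fold up and 2.08 up to the pooled median q, and from fold 5 it turned, with 0 KO peaks in DSCAM and 5 in the flanks. In the flanks 36 of 62 KO peaks, 58.1%, met no WT peak, beside 49.4% of KO peaks on the chromosomes. A KO peak was met by 30 of 32 WT peaks, and 6.25% met none, beside 20.1% of WT peaks on the chromosomes. These shares are not set against that of DSCAM, which its 2 WT peaks hold near the upper limit. The flank beyond the 3′ end had 14 WT and 26 KO peaks and the one beyond the 5′ end 18 and 36. Peak bases were 17455 in WT and 49671 in KO over both flanks, with mean widths of 545 and 801 bp.

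No gene beside DSCAM held more than 6 KO peaks, but these genes span at most 137 kb, beside 836 kb for DSCAM. FAM3B held 5 KO peaks in 53.5 kb and SH3BGR 5 in 69.6 kb. A larger share of the genes beside DSCAM than of all protein-coding genes held a peak. Of 17 protein-coding genes that lie in or reach into the flanks, the body held a WT peak in 9 and a KO peak in 10, 7 had more in KO and 1 had fewer. Across all 20033 protein-coding genes of the chromosomes, 20.9% carried 1 or more WT peaks and 23.7% 1 or more KO peaks, 13.2% had more in KO and 5.63% had fewer. These shares are not like for like. GET1, LCA5L and SH3BGR overlap the readthrough gene GET1-SH3BGR, so the same peaks were counted in more than 1 of the 17. Most of the 17 are also longer than 24.1 kb, the median of all protein-coding genes. PCP4, a calmodulin regulator of neurons and the closest neighbour at 81606 bp, had 0 in both lists. So did PSMG1, a proteasome assembly factor, BRWD1, a bromodomain protein, and HMGN1, a nucleosome-binding protein, on the same side. TMPRSS2, a serine protease, RIPK4, a kinase, and PRDM15, a zinc finger protein, had 0 in both beyond the other end.

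On the 3′ side, SH3BGR had 2 WT and 5 KO peaks and the readthrough gene GET1-SH3BGR 3 and 6, sharing the same peaks. IGSF5, an immunoglobulin superfamily gene of cell junctions, had 1 and 2, GET1 and LCA5L 1 in each list, and B3GALT5, a galactosyltransferase, 3 and 2. On the 5′ side, BACE2, a protease of the amyloid precursor protein, had 3 and 4 peaks, and MX1 and MX2, interferon-induced GTPases, 1 and 2 and 0 and 1. FAM3B, which encodes a cytokine-like secreted protein, had 2 and 5. The strongest KO peak of the flanks, chr21:41302356-41304697 with a fold of 7.76 and 2342 bp, spanned the FAM3B start at 41304242 and met a WT peak. The strongest WT peak, chr21:39163439-39165686 with a fold of 6.03, lay outside genes and also met a KO peak. The strongest flank peaks were thus stronger than any in DSCAM.

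DSCAM formed an isolated run of KO peaks on the long arm. The window of chromosome 21 from 40 to 41 Mb held 4 WT and 121 KO peaks. The 14 windows of 1 Mb before it, from 26 Mb, held between 15 and 47 KO peaks and between 11 and 29 WT peaks. The 6 windows from 41 Mb to the end held between 6 and 39 KO peaks. Elsewhere on the chromosome, 100 or more KO peaks per window were reached only in the 8 windows from 18 to 26 Mb, which held between 100 and 226, and NCAM2 lies there. DSCAM itself accounted for 5.15% of the KO peaks of the chromosome.

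Among long genes, DSCAM had the largest difference in peak density between the lists. It was chosen by the number of its peaks in these same lists, so its ranks here are a description and carry no test. The RefSeq table has 315 protein-coding genes of at least 500 kb, with median densities of 8.93 WT and 12 KO peaks per Mb. DSCAM ranked 2 of 315 in KO density and 247 in WT density, and first in KO minus WT, 136 peaks per Mb. NCAM2 followed with 1 WT and 69 KO peaks, or 1.84 and 127 per Mb. PCDH9 came next at 140 and 168 per Mb, a difference of 28. GPC5 had 76.3 and 66.7 per Mb.

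**Figure D5:**
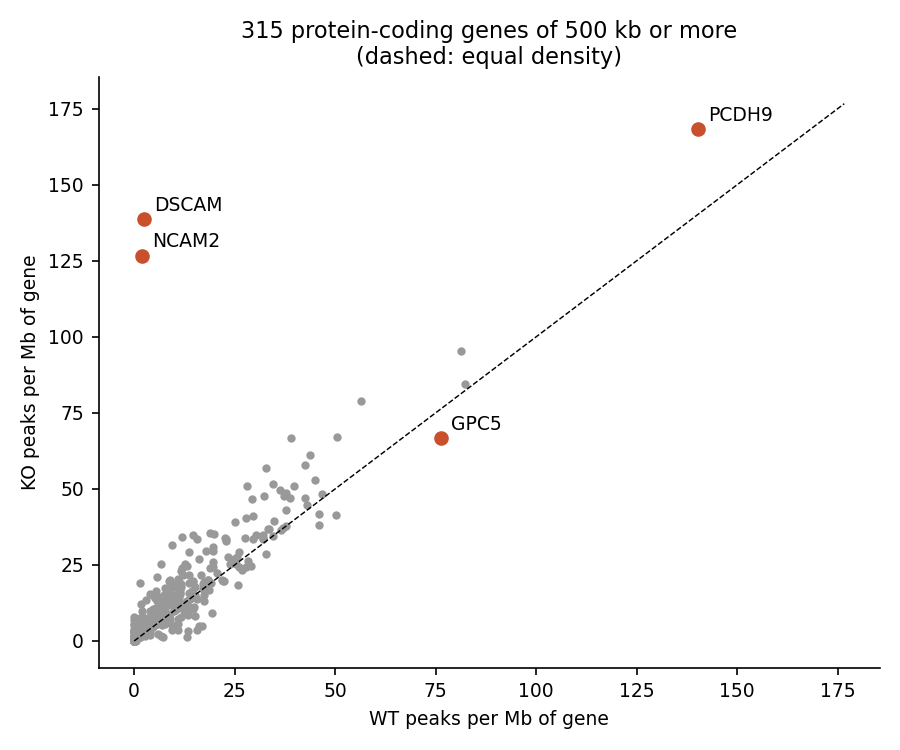
WT peaks per Mb (x axis) and KO peaks per Mb (y axis) in the bodies of 315 protein-coding genes of at least 500 kb, 1 point per gene, with the line of equal density dashed. DSCAM (2.39 and 139) and NCAM2 (1.84 and 127) stand apart near the y axis, and PCDH9 (140 and 168) lies near the line.

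Peaks in NCAM2 were like those of DSCAM in width and fold, with medians of 340 bp and 3.51, and none of its 69 KO peaks met the WT peak there. In PCDH9 the KO peaks had a median width of 542 bp and 26.3% exceeded 1 kb, 8.33% reached fold 5, and 30.8% met no WT peak.

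Likeness to DSCAM was measured by the share of KO peaks among all peaks assigned to a gene, over the 2 lists, for the 538 genes with at least 20 peaks. The share was 98.2% for DSCAM (2 WT and 111 KO peaks) and 55.9% for the median gene, and 20 genes exceeded 90%. Nearest were NCAM2 with 98.6% (1 and 68), the noncoding MIR548XHG of chromosome 21 with 97.1% (1 and 33) and ZNF826P, a zinc finger pseudogene of chromosome 19, with 96.9% (1 and 31). Next came genes with KO peaks alone, of which name order picked AC008554.1 (43 peaks, chromosome 19) and AP001341.1 (35 peaks, chromosome 21), both noncoding. The 5 genes lay on chromosomes 21 and 19, but name order alone set the last 2 places. LINC01687 and LINC01692 of chromosome 21, also with KO peaks alone (23 and 32), were equally near.

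Other genes of the DSCAM family, of netrin and Slit signalling and of neuronal adhesion differed less in peak number between the lists than DSCAM did. NCAM2 came nearest to it, with 1 WT and 69 KO peaks. Of 45 such genes besides DSCAM, a WT peak was present in 27 (60%) and a KO peak in 30 (66.7%), beside 20.9% and 23.7% of all protein-coding genes. More peaks in KO were found in 20 and fewer in 4, beside 13.2% and 5.63% of all protein-coding genes. The median difference in peak number was 0 in both sets. No peak in either list was held by 14 of the 45, and by 15054 of all 20033. The 45 listed genes are long, with a median of 309 kb beside 24.1 kb for all protein-coding genes, and longer genes have more room for a peak. Most KO peaks after DSCAM were in CNTNAP2, a neurexin-like adhesion gene, with 30.4 WT and 34.7 KO peaks per Mb. Then came NCAM2, with 1.84 and 127 per Mb, and ROBO2, a Slit receptor, with 16.1 and 27. The density of NCAM2 in both lists was thus close to that of DSCAM, 2.39 and 139. Chosen after the values were seen, DSCAML1, the paralogue of DSCAM, had 1 WT and 2 KO peaks, and DCC, the netrin receptor with which DSCAM can act, had 0 and 1.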

How the data were processed

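H3K9me3 ChIP-seq of 293T cells was deposited as 2 peak lists, 1 per genotype, in a series of 12 libraries. HISAT2 and hg38 are named in the submitters' processing notes; the peak caller, its settings and the pooling of replicates were not given in the sources used here. Each peak has a fold enrichment from the authors, read as a ratio to background, and a q-value, per the file headers. Neither was recomputed, and the depth per library is unknown. The planned test between libraries was not run because the lists hold no value per library.

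Positions were read as counted from 1, since the lowest start is 1. Peaks were called shared at an overlap of 1 bp. Gene bodies, promoters and microRNAs came from RefSeq tables (GRCh38.p14). Counts, gaps and Wilson intervals were computed in Python 3.11.15 with pandas 2.3.3 and numpy 2.4.6, and the overlap code was tested on simulated intervals. Genes were named by rule: those in or beside DSCAM, those nearest in KO share, 3 comparison genes and the 4 family members with the most KO peaks. Single peaks named were all WT peaks, the 5 KO peaks of highest fold, the 3 widest and those nearest the gene's ends; the strongest flank peaks and the promoter-class peaks were added after the values were seen. The gene, the lists and the rules were chosen with earlier results of these data known. Alternatives varied the thresholds, list length, overlap, joining, membership and flank width.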

Additional observations from a re-analysis of the deposited data

How the results depend on the processing

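No value has a replicate check, and the depth is unknown. No paired analysis was possible because the lists carry no replicate numbers, and no library could be left out. Of 48 recomputed values, 25 stayed within 1.5 times the reported count or sum of bases, or within the 95% counting interval of the reported share, and 23 did not. The share of DSCAM KO peaks that met no WT peak ran from 96.3% to 99.1% under the 8 alternatives that gave a value, which is no sign of stability, since at most 2 WT peaks could be met; from fold 5 no peak was left to count. Peaks in DSCAM (WT and KO) were 1 and 32 from the pooled median fold up, 0 and 0 from fold 5, 1 and 33 up to the pooled median q (1.71e-07), 2 and 54 in lists of equal length, and 1 and 84 when joined. Peak bases in KO were 16325, 0, 16647 and 25975 under the first 4 of these. In WT they were 0 from fold 5 and 1947 when joined, which adds the bases between the pair. Peaks in the flanks (WT and KO) were 13 and 31 from the pooled median fold up, 1 and 5 from fold 5, 10 and 38 by q, 19 and 34 with flanks of 500 kb, and 39 in KO when joined. The ratio of KO densities, gene over flanks, was 5.15 when joined and 0 from fold 5. Each of these alternatives keeps fewer peaks, joins them or shortens the flank, so a count that is lower or equal is built in. The fall was uneven, however. In lists of equal length DSCAM kept 54 of its 116 KO peaks and the flanks kept 45 of 62, where the whole KO list kept 46898 of 65170.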
